A study of Homo sapiens with 6 samples.

Results

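The Krüppel-like factor (KLF) genes examined here were KLF2, KLF4, KLF5, KLF6, KLF9, KLF10, KLF11, KLF12, KLF13 and KLF16, taken as every probe whose platform gene symbol was one of these 10 names. Of the 10 genes, 9 had a named probe (13 probes of 47231 on the array), 7 passed the filter on detection among 11129 genes tested, and KLF11 was not analysed here. RUNX1-overexpressing cells (3 arrays) and MCS-transduced cells (3 arrays) were compared. All were HEK-293T cells, an embryonic kidney line of human origin that carries the SV40 large T antigen. They were transduced at an MOI of 10, kept under 1 µg/ml puromycin and collected on day 7. The RUNX1 lentivirus delivers the human blood transcription factor RUNX1 to cells that the study describes as lacking it, and MCS, labelled a mock control, is the same kind of virus with only the multiple cloning sites. Both groups therefore carry a lentivirus and the selection, and the labels do not name the promoter that drives RUNX1. A figure legend of the study calls the arrays biological triplicates, while the labels name no separate cultures, so the p-values measure only the spread between these samples.

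KLF proteins bind GC-rich and CACCC sequences through C2H2 zinc fingers at their C-terminal end, which they share with the SP factors, and differ in the N-terminal part that recruits other proteins. KLF9, KLF10, KLF11, KLF13 and KLF16 recruit the SIN3A corepressor, KLF12 recruits the CtBP corepressors, and KLF2, KLF4, KLF5 and KLF6 act mostly as activators with histone acetyltransferases. Several KLF genes, such as KLF2, KLF4, KLF6 and KLF10, are transcribed early after growth factors, shear stress or TGF-beta, and in blood KLF2 is known for lymphocyte quiescence and KLF4 for monocyte differentiation.

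The number of probes detected (detection p below 0.05) was 18096 to 19321 with RUNX1 and 18405 to 19080 with MCS. The transduced gene could not be checked, since 0 of 9 signals of the 3 RUNX1 probes were detected on the RUNX1 arrays and 1 of 9 on the MCS arrays, and the position of the probes against the transduced sequence is not known here. The labels therefore rest on the submitters' names alone. Of 8 markers of HEK293T cells, 6 were tested, and PAX2 was detected on no array. Of 7 blood cell markers, PTPRC, CD3E and SPI1 were detected on no array, whereas CD14 and CD34 passed the filter. The CD14 probe that passed was detected on 6 arrays, and another CD14 probe on no array. The CD34 probe that passed was detected on 3 arrays, at signals of 119 to 138.2 over all arrays, close to the lowest detected signals. No other CD34 probe passed. The arrays did not group by transduction. On the first principal component of 11115 genes outside the KLF and SP family (66.7% of the variance), the scores of replicates 1, 2 and 3 were -21.1, -21.3 and 26.6 with RUNX1 and -25.6, 15.02 and 26.4 with MCS. Arrays below 0 (RUNX1 replicates 1 and 2, MCS replicate 1) and above 0 (RUNX1 replicate 3, MCS replicates 2 and 3) are called the negative side and the positive side here. These sides were defined from the data, are not groups of the study, and are given as values only. RUNX1 replicate 3 and MCS replicate 1 each score with the other group's majority, and whether their labels were exchanged could not be checked, so every difference between RUNX1 and MCS holds for the arrays as labelled.

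The KLF genes differed in whether they could be read at all. Detection compares a probe with the negative controls of its array, and the lowest detected signal of an array was 124 to 129. KLF2, KLF6, KLF9 and KLF13, with a single probe each, were detected on 6 of 6 arrays. So were the probe kept for KLF12 and that kept for KLF10. The probe kept for KLF4 was detected on 2 of 3 RUNX1 arrays and 3 of 3 MCS arrays, at signals of 126.5, 119.6 and 166.4 with RUNX1 and 136.6, 149.2 and 150.8 with MCS (replicates 1, 2 and 3), so it lies close to the limit of detection. KLF5, which is known from dividing epithelial cells, gave signals of 120, 95.8 and 98.7 with RUNX1 and 100.3, 100.6 and 113.5 with MCS, none of them detected. KLF16, which is known to repress dopamine receptor promoters, gave 106, 81.1 and 86.4 with RUNX1 and 86.1, 84.1 and 84.9 with MCS, again with no detected signal. For these genes no level and no fold can be given.

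**Figure D1:**
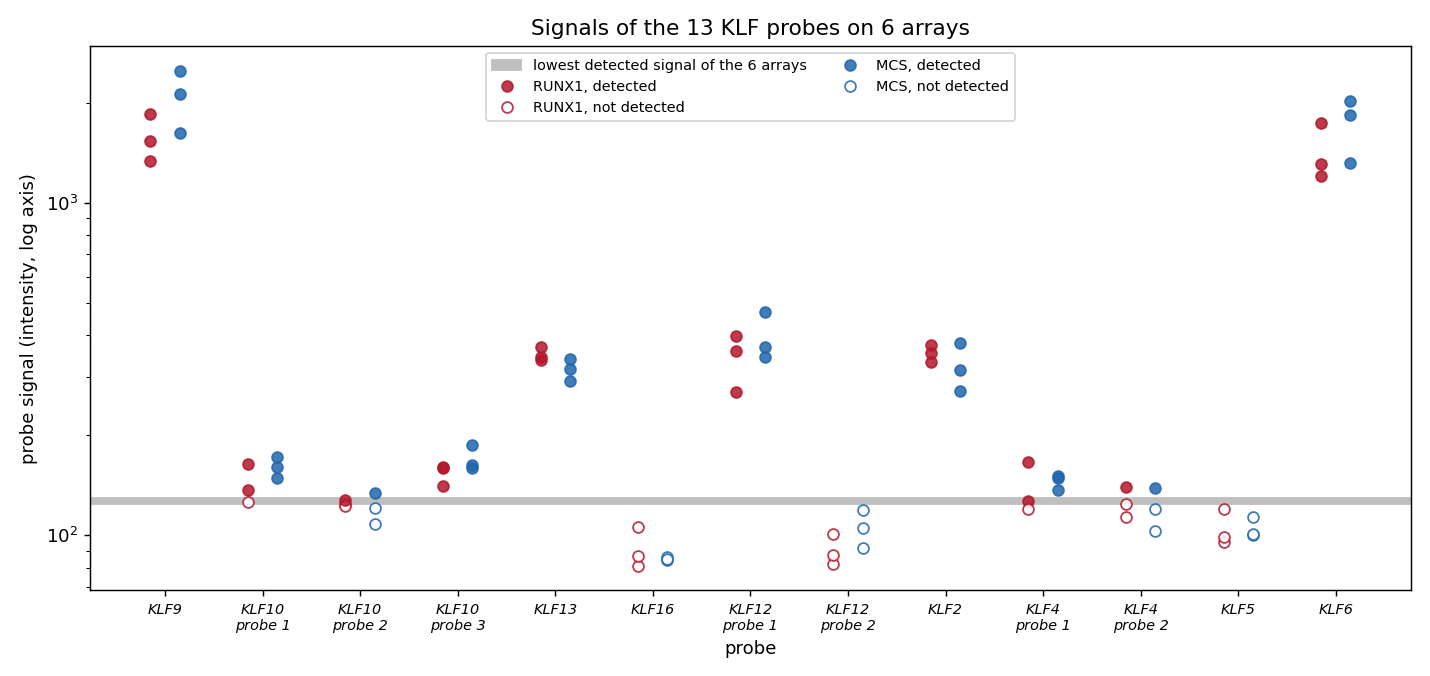
Signal (intensity, log axis) of the 13 KLF probes on 3 RUNX1 arrays (red, left of each pair) and 3 MCS arrays (blue, right), filled where detected at a p under 0.05, with the band of the lowest detected signal of the 6 arrays (124 to 129). The KLF5 and KLF16 probes and the second KLF12 probe are open on every array, and signals of different probes are not set against each other because each probe hybridizes differently.

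Among the genes whose products recruit SIN3A, KLF13 was higher and KLF9 and KLF10 were lower on average in RUNX1-overexpressing cells, and none of the 3 passed the test. Expression values are log2 intensities after background correction and quantile normalization, given for replicates 1, 2 and 3 of each group in turn. KLF9, a factor induced by glucocorticoid and thyroid hormones, was at 10.46, 10.43 and 10.95 with RUNX1 and 10.48, 11.07 and 11.04 with MCS. The groups overlap, and the values follow the sides of the first principal component, since RUNX1 replicate 3 lies with the high MCS arrays, and MCS replicate 1 with the low RUNX1 arrays. The means were 10.61 ± 0.29 for RUNX1 and 10.86 ± 0.33 for MCS (SD, n = 3 each), a log2 difference (RUNX1 minus MCS) of -0.25 with a 95% confidence interval of -0.77 to 0.26 (adjusted p = 1.00 from limma). Leaving out single arrays moved it between -0.44 (without MCS replicate 1) and -0.15 (without MCS replicate 2). With limma's array weights the difference of KLF9 was -0.56 (adjusted p = 0.0449), and with the side as a block it was -0.07. The smallest weights fell on RUNX1 replicate 3 (0.279) and on MCS replicate 1 (0.314), each of which scored on the other side of the first principal component than its group mates, so the weighted difference cannot be told apart from that separation.

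KLF13, which is known as an activator of CCL5 in T cells, was at 7.97, 8.10 and 8.43 with RUNX1 and 7.73, 7.51 and 8.04 with MCS. The groups overlap only through MCS replicate 3, which exceeded RUNX1 replicate 1. The means were 8.17 ± 0.24 for RUNX1 and 7.76 ± 0.27 for MCS (SD, n = 3 each), which differ by 0.40 on the log2 scale (95% confidence interval -0.04 to 0.85, adjusted p = 1.00 from limma). The difference was 0.30 between the arrays of the negative side and 0.66 between those of the positive side. KLF10, an early gene of TGF-beta signalling, was at 6.22, 6.35 and 6.03 with RUNX1 and 6.57, 6.12 and 6.33 with MCS, which overlap widely. Its log2 difference was -0.14 (-0.52 to 0.25), and it ran from -0.25 without MCS replicate 2 to -0.02 without MCS replicate 1. Another KLF10 probe, detected on 5 arrays, ran the same way on average, at 6.29, 5.80 and 5.54 with RUNX1 and 6.35, 5.93 and 6.30 with MCS. The remaining KLF10 probe was detected on 1 RUNX1 array and 1 MCS array and gives no level.

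**Figure D2:**
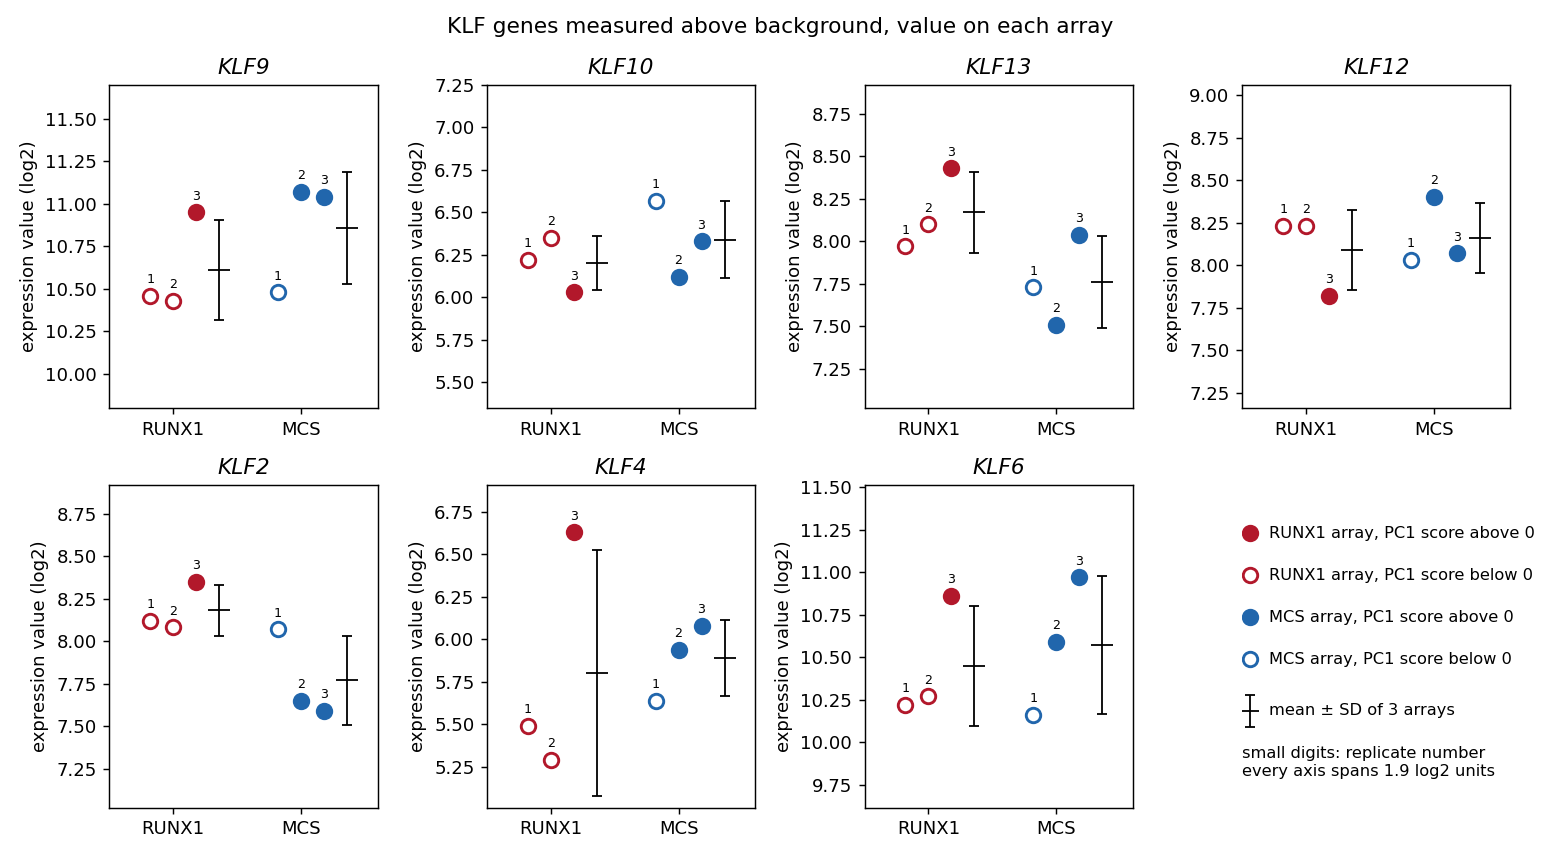
Expression value (log2) of the 7 KLF genes that passed the filter on each of the 3 RUNX1 arrays (red) and 3 MCS arrays (blue), with the mean and SD of each group, filled for arrays that score above 0 on the first principal component (PC1) and open for those below. KLF2 alone has every RUNX1 array above every MCS array, by 0.011, and in KLF4, KLF6 and KLF9 the filled points lie above the open points in both groups.

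The sequences before the annotated starts of KLF9 and KLF13 are shown because these are the members of this class with the largest differences, of opposite sign. Each run is the 250 bases before the gene's start in the RefSeq table (GRCh38.p14), 5′ to 3′ on the gene's strand, at chr9:70414658-70414907 (minus strand) for KLF9 and chr15:31326585-31326834 (plus strand) for KLF13. Capitals mark matches on either strand to the RUNX hexamers TGTGGT and TGCGGT, the CACCC box CCACCC, the GC box GGGCGG, the cAMP response element TGACGTCA and its part TGACG, and the E-box CACGTG.
KLF9: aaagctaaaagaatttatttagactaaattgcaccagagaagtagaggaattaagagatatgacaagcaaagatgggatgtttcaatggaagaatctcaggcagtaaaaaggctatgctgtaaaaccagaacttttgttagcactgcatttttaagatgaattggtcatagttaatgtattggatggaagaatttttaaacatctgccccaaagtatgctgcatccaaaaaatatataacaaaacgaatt
KLF13: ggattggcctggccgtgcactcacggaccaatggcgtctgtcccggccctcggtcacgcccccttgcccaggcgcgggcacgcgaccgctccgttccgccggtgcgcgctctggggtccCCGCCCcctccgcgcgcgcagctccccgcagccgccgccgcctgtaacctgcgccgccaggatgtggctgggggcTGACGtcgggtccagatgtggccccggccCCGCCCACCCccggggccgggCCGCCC
The KLF9 run is AT-rich (32.4% G or C) and holds 0 matches, whereas the KLF13 run has 78.8% G or C and 5 matches, a GC box overlapping the CACCC box among them. A match is a string of letters and says nothing of binding in these cells.

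KLF12, a CtBP-dependent repressor first described on the TFAP2A promoter, was at 8.23, 8.23 and 7.82 with RUNX1 and 8.03, 8.40 and 8.07 with MCS. RUNX1 replicate 3 was the lowest array and MCS replicate 2 the highest, and the groups overlap. The log2 difference was -0.07 (95% confidence interval -0.48 to 0.34, adjusted p = 1.00 from limma), and its sign rests on single arrays, since it was 0.06 without RUNX1 replicate 3 and 0.04 without MCS replicate 2. The second KLF12 probe was detected on no array. TFAP2A itself, named here for its tie to KLF12 and not for its values, had a log2 difference of -0.03 (-0.68 to 0.61).

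Of the activators, KLF2 had the largest difference of the 7 genes tested, and it was not past the threshold. KLF2, a factor of endothelial and lymphocyte quiescence, was at 8.12, 8.08 and 8.35 with RUNX1 and 8.07, 7.65 and 7.59 with MCS. Every RUNX1 array was above every MCS array, but RUNX1 replicate 2 and MCS replicate 1 differed by only 0.011, and before normalization the signals overlapped, at 373.8, 333 and 353.2 with RUNX1 and 377.5, 314.8 and 271.5 with MCS. The means were 8.18 ± 0.15 for RUNX1 and 7.77 ± 0.26 for MCS (SD, n = 3 each), a log2 difference of 0.41 (95% confidence interval 0.01 to 0.81), or 1.33-fold (1.01 to 1.76). Its unadjusted p of 0.0452 from limma became an adjusted p of 1.00 over 11129 genes. KLF2 was the member, 1 of 7 tested, whose groups did not overlap, beside 6.56% of all genes in either direction and 3.81% with RUNX1 higher, and 1 of 7 with an unadjusted p under 0.05, beside 2.26% of all genes.
The KLF2 difference was uneven across the arrays. Between arrays of the negative side it was 0.03, and between those of the positive side it was 0.73. With the side as a block it was 0.38 (adjusted p = 0.681 from limma). With array weights it was 0.45 (adjusted p = 0.0467), under the same limit as for KLF9. Under 21 alternatives its adjusted p from limma or the methods' t-test was below the threshold only with array weights, and the log2 difference ran from 0.19 to 0.56.

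KLF6, a widely expressed factor and a tumour suppressor in several tissues, was at 10.22, 10.27 and 10.86 with RUNX1 and 10.16, 10.59 and 10.97 with MCS. Within each group its values span more than the distance between the means, which were 10.45 ± 0.35 for RUNX1 and 10.57 ± 0.41 for MCS (SD, n = 3 each). The log2 difference was -0.12 (95% confidence interval -0.73 to 0.48, adjusted p = 1.00 from limma), but it was 0.09 between the arrays of the negative side and 0.08 between those of the positive side. KLF4, a reprogramming factor that also acts in epithelial differentiation, was at 5.49, 5.29 and 6.63 with RUNX1 and 5.64, 5.94 and 6.08 with MCS. RUNX1 replicate 3 was the highest of all arrays and RUNX1 replicate 2 the lowest, so the RUNX1 arrays enclose the MCS arrays. Its log2 difference was -0.08 (-0.89 to 0.73), the widest interval of the 7 genes, and single RUNX1 arrays set its sign, in that leaving out replicate 2 gave 0.17, and leaving out replicate 3 gave -0.50. The other KLF4 probe was detected on 1 RUNX1 array and 1 MCS array and gives no level.

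The same upstream stretch is shown for KLF2, the member with the largest difference, and for KLF6, whose values over the arrays were closest to those of KLF9. They lie at chr19:16324576-16324825 (plus strand) for KLF2 and chr10:3785210-3785459 (minus strand) for KLF6, with capitals as above.
KLF2: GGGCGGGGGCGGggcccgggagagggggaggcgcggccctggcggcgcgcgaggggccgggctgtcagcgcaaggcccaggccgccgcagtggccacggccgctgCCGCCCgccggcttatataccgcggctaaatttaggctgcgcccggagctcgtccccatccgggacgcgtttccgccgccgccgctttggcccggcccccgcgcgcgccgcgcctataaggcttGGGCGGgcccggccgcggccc
KLF6: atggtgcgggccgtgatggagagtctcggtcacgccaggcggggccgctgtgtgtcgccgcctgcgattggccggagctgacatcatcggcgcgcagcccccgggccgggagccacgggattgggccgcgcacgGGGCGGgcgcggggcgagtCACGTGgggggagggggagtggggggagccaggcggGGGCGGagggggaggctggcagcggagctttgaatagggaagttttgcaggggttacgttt
The KLF2 run holds 4 GC boxes and the KLF6 run 2 GC boxes and an E-box, whereas neither holds a RUNX hexamer.
In the full windows of RefSeq, 250 bases before to 50 after a start, 9 members had 14 windows. TGTGGT was in 1 of the 14, a start of KLF12, and in 13.1% of all 35116 windows in the table, and TGCGGT was in 1, a start of KLF5, and in 7.29% of all. The GC box was in 9 of 14 (64.3%), beside 45% of all windows, the CACCC box in 3 (21.4%), beside 34.3%, and the E-box in 3 (21.4%), beside 7.26%. TGACG was in 5 (35.7%), beside 24.6%, and the full TGACGTCA in 1, a start of KLF11, beside 1.85%. The windows of a gene can share sequence, so these shares are a description.

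Of the 7 KLF genes tested, 0 passed limma's threshold of an adjusted p of 0.05 in either direction, as did 0% of all 11129 genes, of which 251 had an unadjusted p under 0.05. On average 2 of the 7, KLF2 and KLF13, were higher with RUNX1 and 5 were lower. The log2 differences ran from -0.25 to 0.41 with a median of -0.083, beside a median of 0.021 over all genes tested. As fold changes the 95% confidence intervals were 0.969 to 1.81 for KLF13, 0.586 to 1.20 for KLF9 and 0.604 to 1.40 for KLF6. No such limit is given for KLF4, whose signals lie at the limit of detection, where a fold rests on signals little above background.

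**Figure D3:**
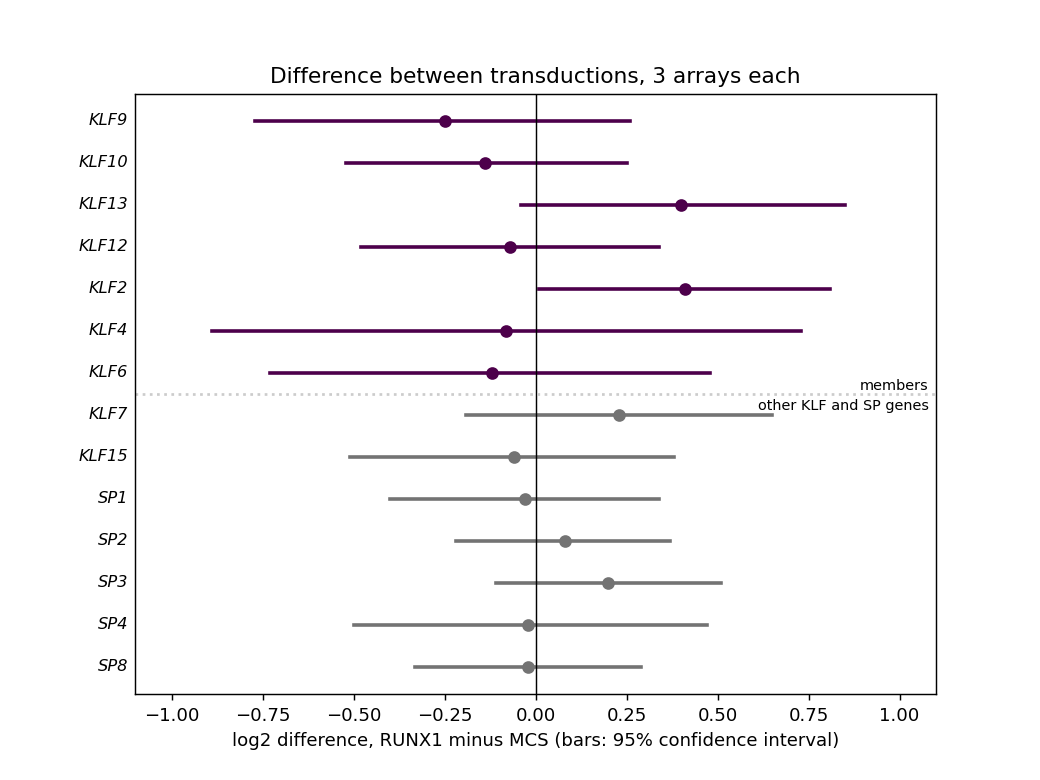
Log2 difference, RUNX1 minus MCS, with its 95% confidence interval for the 7 KLF genes tested (purple) and 7 other KLF and SP genes (grey), 3 arrays per group. Only the interval of KLF2 (0.01 to 0.81) leaves 0 outside, before any adjustment for the 11129 genes tested.

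The KLF genes differed in their spread over the arrays. The SD over the 6 arrays was highest for KLF4 (0.482), followed by KLF6 (0.347), KLF13 (0.318), KLF9 (0.311) and KLF2 (0.295), and lowest for KLF12 (0.201) and KLF10 (0.190). Its median over the 7 genes was 0.311, beside 0.215 over all genes tested. The first place of KLF4 depends on the processing, since its signals lie close to the limit of detection. In the authors' processed values KLF4 ran from 7.24 to 7.79 over the arrays, a narrower range than KLF6 with 10.31 to 11.06. In KLF4, KLF6 and KLF9, each array of the positive side was above each array of the negative side, by 0.30, 0.32 and 0.46 at the closest. This order held for 3 of the 7 members, beside 18.1% of all genes with the same order and 26.3% with the reverse order, which no member had, so the members' share with either order (3 of 7) was near the 44.4% of all genes. KLF6 and KLF9 were the closest pair among the 7 genes, with a root mean square difference of 0.141 between their values over the 6 arrays after centring each gene on its mean. The next closest pairs were KLF2 with KLF13 at 0.246 and KLF4 with KLF6 at 0.248.

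**Figure D4:**
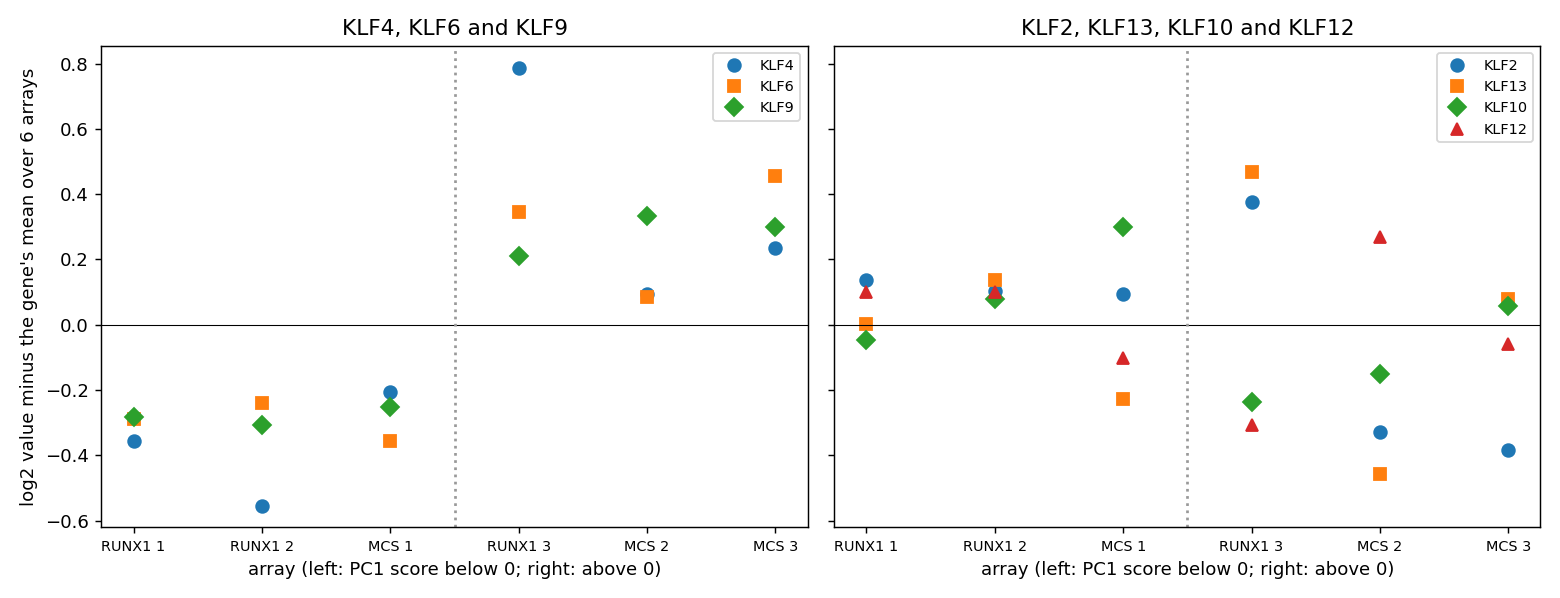
Log2 value minus the gene's own mean over the 6 arrays, for KLF4, KLF6 and KLF9 (left panel) and for KLF2, KLF13, KLF10 and KLF12 (right panel), with arrays left of the dotted line scoring below 0 on the first principal component (PC1) and those right of it above 0. KLF4, KLF6 and KLF9 were put together after their values were seen, and in the right panel RUNX1 replicate 3 holds the highest KLF2 and KLF13 and the lowest KLF10 and KLF12.

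Other measures moved with the same sides of the arrays. The share of probes detected was 40.9%, 39.8% and 38.3% with RUNX1 and 40.4%, 39.6% and 39.0% with MCS, lower on each array of the positive side than on any of the negative side. Of 5 fibroblast markers, 2 passed the filter. LUM, which encodes an extracellular matrix proteoglycan, gave signals of 430.7, 310.3 and 123 with RUNX1 and 395.4, 123.2 and 124.6 with MCS. It was detected only on the 3 arrays of the negative side, through which it passed the filter, and COL1A1 was near the limit of detection. The summed signal of the 5 fibroblast genes was 556 to 880 on the RUNX1 arrays and 563 to 868 on the MCS arrays, with COL1A2 and PDGFRB detected on no array by their brightest probe. The summed signal of 7 HEK293T markers was 8263 to 9175 on the RUNX1 arrays and 9390 to 12159 on the MCS arrays, before normalization. After normalization 0 of the 6 HEK293T markers tested had groups that did not overlap, beside 6.56% of all genes in either direction. KRT8 (0.23) and NEFM (0.08) were higher on average with RUNX1, whereas EYA1 (-0.43), NEFL (-0.35), VIM (-0.23) and KRT18 (-0.17) were lower. For EYA1 only MCS replicate 2 stood out, at signals of 144.4, 130.1 and 152.3 with RUNX1 and 146.9, 251.8 and 150.9 with MCS. The other EYA1 probes were detected on no array. Of 6 blood cell markers, 3 were detected on no array, so the summed signal of the 6 holds background. That sum was 690 to 756 on the RUNX1 arrays and 719 to 747 on the MCS arrays. The part of any of these in the KLF values was not tested, and fewer cells of a type cannot be told apart from less RNA per cell in such samples.
The genes most like KLF6 over the 6 arrays were ZBTB5, CREBRF and RNF216P1, at root mean square differences of 0.033, 0.039 and 0.045. CREBRF was at 8.26, 8.30 and 8.91 with RUNX1 and 8.27, 8.73 and 9.01 with MCS. Those most like KLF4, whose signals lie close to the limit of detection, were CNIH2, KLHL15 and RASD1, at 0.078, 0.081 and 0.097. These genes were picked for their likeness out of all genes tested, over 6 arrays only.

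The rest of the family was mostly not measured. Of 16 other KLF and SP genes, 7 were tested, namely KLF7, KLF15, SP1, SP2, SP3, SP4 and SP8, and 0 were higher and 0 lower at an adjusted p under 0.05 from limma. KLF1, the erythroid factor, and KLF3, KLF8, KLF14 and KLF17 were detected on no array. The log2 differences of the 7 ran from -0.06 to 0.23 with a median of -0.015. SP3, which shares GC boxes with SP1, was at 8.36, 8.28 and 8.42 with RUNX1 and 7.98, 8.25 and 8.24 with MCS. Its groups did not overlap, as for 3.81% of all genes with RUNX1 higher, and its difference was 0.20 (-0.11 to 0.51). The closest arrays were RUNX1 replicate 2 at 8.28 and MCS replicate 2 at 8.25. Before normalization its signals overlapped, at 428.9, 368.9 and 367.9 with RUNX1 and 359.8, 432.9 and 374.9 with MCS. Another SP3 probe, detected on 5 arrays, gave overlapping signals of 135.2, 127.7 and 130.8 with RUNX1 and 123.8, 145.8 and 137.1 with MCS. KLF7, a close relative of KLF6, had 0.23 (-0.19 to 0.65), SP2 had 0.08 and KLF15, a metabolic regulator, had -0.06. The KLF7 probe was detected on 5 arrays, close to the limit of detection. Its signals were 142.5, 145.3 and 130.4 with RUNX1 and 124.4, 147 and 133.3 with MCS.

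Partners, regulators and targets of KLF proteins were read from lists in the same fit, and in none of them did a gene pass an adjusted p under 0.05 from limma. All 16 partners were tested, with log2 differences from -0.41 to 0.14 and a median of 0.011. EP300, an acetyltransferase that KLF factors recruit, was at 6.87, 6.68 and 6.47 with RUNX1 and 7.14, 7.02 and 7.08 with MCS, with no overlap. Its difference was -0.41 (95% confidence interval -0.74 to -0.07), with an unadjusted p of 0.0239 and an adjusted p of 1.00. It was 1 of 16 partners on either count, beside 2.75% of all genes without overlap and RUNX1 lower, and 2.26% with an unadjusted p under 0.05. SIN3A, the corepressor of KLF9, KLF10 and KLF13, had a difference of -0.12 (-0.46 to 0.23), and the deacetylases HDAC2 and HDAC3 had 0.13 and -0.10. SIN3A was at 10.38, 10.39 and 10.66 with RUNX1 and 10.42, 10.67 and 10.69 with MCS, higher on each array of the positive side. It was 1 of 16 partners with that order, beside 18.1% of all genes, and 4 partners, HDAC1, HDAC2, WWP1 and KAT2B, had the reverse order, beside 26.3%.
Of 16 genes upstream of KLF genes, 13 were tested, with fitted differences from -0.32 (NR3C1) to 0.34 (TGFBR2) and a median of 0.062. TGFBR2, a receptor of the TGF-beta pathway that induces KLF10, was at 7.82, 7.87 and 7.43 with RUNX1 and 7.51, 7.24 and 7.37 with MCS, a difference of 0.34 (-0.05 to 0.72). Another TGFBR2 probe, also detected on 6 arrays, gave signals of 306.9, 290.1 and 176.9 with RUNX1 and 330.7, 249.7 and 252 with MCS. These signals are before normalization, and the groups overlap. NR3C1, the glucocorticoid receptor through which KLF9 is induced, was detected only on the 3 arrays of the positive side, through which it passed the filter, at signals of 107.3, 108.5 and 132.1 with RUNX1 and 126.4, 138.8 and 130.9 with MCS, so its fitted difference rests on signals that were not detected. SMAD4 and STAT3, which carry TGF-beta and cytokine signals, had 0.21 and 0.17. Other STAT3 probes, also detected on 6 arrays, gave signals that overlap between the groups before normalization, as did the STAT3 probe kept. Of the 13, 3 were higher on each array of the positive side (ELK4, MAPK7 and, through its filter, NR3C1), beside 18.1% of all genes. Another 3 were lower there (TGFBR2, STAT3 and MAP2K5), beside 26.3%.
Of 22 target genes, 12 were tested, with differences from -0.32 to 0.40 and a median of -0.0094. MYC, the growth-promoting transcription factor, was at 11.23, 11.25 and 10.97 with RUNX1 and 11.57, 11.54 and 11.30 with MCS, a difference of -0.32 (-0.66 to 0.02). Its groups did not overlap, as for 2.75% of all genes with RUNX1 lower. Before normalization the MYC signals overlapped, with RUNX1 replicate 1 at 2563.7 and MCS replicate 3 at 2512.9. Another MYC probe, detected on 6 arrays, gave overlapping signals of 244.9, 246.4 and 198.4 with RUNX1 and 286.4, 332 and 215.5 with MCS. CDKN1A, the cell cycle inhibitor that KLF4 and KLF6 activate, was at 12.34, 12.47 and 12.01 with RUNX1 and 12.36, 11.39 and 11.87 with MCS, a difference of 0.40 (-0.21 to 1.00). MAOA and SMAD7 had 0.30 and -0.12. CDKN1A and MAOA were lower on each array of the positive side. Of the 12 targets, 4 had that order, beside 26.3% of all genes. Another 4, SMAD7 among them, were higher on each array of the positive side, beside 18.1%. CCL5, the target of KLF13, had -0.18 (-0.74 to 0.39) and is named for that tie. Its probe was detected on 6 arrays at signals of 138.9 to 184, not far above the limit of detection. Another CCL5 probe was detected on 1 array.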

How the data were processed

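Signals of Illumina Human HT-12 v4 BeadChips were used. The intensities deposited by the authors were summarised per probe with BeadStudio, neither background-corrected nor normalized, and came with detection p-values, also deposited. The deposited log2 values, processed by the authors with lumi, were an alternative. The genome build, the version of lumi and any background step are not given in the sources used here. Probes were named through the platform annotation (30113 with 1 symbol, 8 with several, 17110 unnamed), and their positions, and so any match to pseudogenes of KLF2 or KLF4, were not checked.

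Background correction, quantile normalization and log2 transformation used limma 3.58.1 (neqc, offset 16, under R 4.3.3). A probe needed a detection p below 0.05 on 3 or more of 6 arrays, and each gene kept its brightest such probe, which gave 11129 genes of 20046 with a named probe. Groups were compared with lmFit and eBayes without covariates (7.19 moderated degrees of freedom), adjusted by Benjamini-Hochberg over all genes tested, and the fit was tested on simulated data. The members and lists were chosen with earlier results of these data known. All members are named, with up to 4 genes with the smallest p of each other list and the 3 genes most like each of the 2 members with the largest SD. TFAP2A and CCL5 are named for a tie to a member, the HEK293T markers as all those tested, and some list genes for their order by side. The side is the sign of the score on the first principal component. Alternatives were other background corrections, normalizations, filters, probe choices, tests, weights and blocks, and leaving out each array. The methods' t-test is the unpaired test of the statistical section, which does not name the arrays. The number of arrays limits the precision. Upstream sequences came from RefSeq tables of GRCh38.p14, and that of KLF10 was not used here.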

Additional observations from a re-analysis of the deposited data

How the results depend on the processing

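With 3 arrays per group, 0 of 7 KLF genes and 0 of 11129 genes passed the threshold, as under 20 of 21 alternatives. The exception was array weighting, which called 897 genes (513 up with RUNX1 and 384 down), including 2 KLF genes, KLF2 (0.45) and KLF9 (-0.56). The methods' t-test called 0 genes after Benjamini-Hochberg adjustment and 360 at an unadjusted p under 0.05. The median difference of the KLF genes was -0.083 and was -0.286 with no normalization, a setting that also moved the median of all genes to -0.167 (0.021 as reported). Leaving out single arrays, it ran from -0.142 to 0.015, and it was above 0 only without MCS replicate 3. The sign turned for KLF10 with array weights (0.11) and, with the side as a block, for KLF4 (0.19), KLF6 (0.08) and the median (0.0826). It also turned on leaving out single arrays, which gave ranges of -0.50 to 0.17 for KLF4, -0.33 to 0.07 for KLF6 and -0.14 to 0.06 for KLF12. KLF4 turned when RUNX1 replicate 1 (0.08), when RUNX1 replicate 2 (0.17) or when MCS replicate 3 (0.01) was left out, and KLF6 when MCS replicate 3 was. Where not named, the cause was not tested. KLF2 and KLF13 were above 0 and KLF9 below 0 under all 21 alternatives. With no filter on detection 9 members were tested, and under a stricter filter (every array of a group below 0.01) 6 were, without KLF4. Detection, at a signal of 124 to 129, limits KLF4, KLF5, KLF10 and KLF16.

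Whether the replicate numbers of the sample names pair the arrays could not be told. The deviations of same-numbered arrays from their group means correlated at 0.568, -0.347 and 0.704 across genes. RUNX1 replicates 1 and 3 were each closest to their own number, but RUNX1 replicate 2 was closest to MCS replicate 1 (0.624). These deviations also hold the separation along the first principal component, so the correlations cannot decide on pairing. With the replicate block 0 genes and 0 KLF genes passed the threshold, the smallest adjusted p of a KLF gene was 0.943, and the median difference stayed at -0.083.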
